A study of Homo sapiens with 9 samples.

Results

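The genes described here are 25 symbols of ion channels and of transcripts named after them, out of 14884 named genes on the arrays. They were chosen by the start of the symbol (KCN, SCN, CACN, HCN, TRP, CLCN or ANO) in the platform annotation, with 1 probeset per symbol, the one with the highest mean over the 9 arrays. They comprised 7 anoctamins, 3 HCN channels, 5 potassium channel accessory genes, 9 long non-coding RNA genes at channel loci and TRPC5OS, a protein-coding gene on the strand opposite TRPC5. The name "voltage-gated ion channels" covers them only in part. Apart from the HCN genes, 0 of the 25 encode a pore-forming subunit of a potassium, sodium, calcium, TRP or CLC channel, and the other 224 of the 249 RefSeq symbols that match the rule were not analysed here.

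RNA came from SMS-KCNR, an established human neuroblastoma line, grown in medium with serum. The 9 arrays form 3 groups of 3, all harvested at 30 hours: simvastatin (5 µM) plus mevalonate (2 mM), simvastatin (5 µM) alone, and the solvent DMSO. Simvastatin blocks the enzyme that makes mevalonate, the precursor of cholesterol and of isoprenoid groups, so the mevalonate arm addresses which changes depend on that product. No group had mevalonate alone, so an effect of mevalonate by itself cannot be told apart from a reversal of the drug's effect. All groups are of 1 cell line. The design text of the series names independent samples and no pairing, but the labels do not say whether they were separate cultures. The tests thus measure only how far these samples spread, which may in part be technical.

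HCN channels open when the membrane becomes more negative, bind cyclic nucleotides, and carry a mixed sodium and potassium current that helps set resting potential and rhythm in heart and neurons. Anoctamins (the TMEM16 family) are membrane proteins of which some are calcium-activated chloride channels and others scramblases, which move phospholipids between the leaflets of a membrane. KCNIP proteins are calcium sensors that bind Kv4 potassium channels, and KCNE proteins are small membrane partners of KCNQ and other potassium channels.

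HCN3 was the member with the clearest response, so the stretch of sequence around its RefSeq transcription start is shown with those of its family members HCN2 and HCN4, whose values did not pass the test, and with that of ANO5, which also rose. Each is 300 bases long, 250 before the start and 50 from it, from RefSeq (GRCh38.p14), written 5′ to 3′ along the gene. The capitals mark GC boxes, the letters GGGCGG on either strand.
HCN3: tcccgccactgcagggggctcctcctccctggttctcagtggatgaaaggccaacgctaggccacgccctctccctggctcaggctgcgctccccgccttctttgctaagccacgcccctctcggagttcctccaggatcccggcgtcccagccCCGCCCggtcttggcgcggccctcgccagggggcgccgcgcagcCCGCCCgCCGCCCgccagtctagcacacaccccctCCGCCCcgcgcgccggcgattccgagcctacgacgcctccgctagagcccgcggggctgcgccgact
HCN2: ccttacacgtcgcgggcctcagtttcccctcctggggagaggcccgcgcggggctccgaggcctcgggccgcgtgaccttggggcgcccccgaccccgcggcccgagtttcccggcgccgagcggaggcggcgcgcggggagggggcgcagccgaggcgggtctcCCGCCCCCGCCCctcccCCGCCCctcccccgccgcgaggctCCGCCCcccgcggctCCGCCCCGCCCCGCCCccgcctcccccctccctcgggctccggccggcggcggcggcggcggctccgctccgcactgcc
HCN4: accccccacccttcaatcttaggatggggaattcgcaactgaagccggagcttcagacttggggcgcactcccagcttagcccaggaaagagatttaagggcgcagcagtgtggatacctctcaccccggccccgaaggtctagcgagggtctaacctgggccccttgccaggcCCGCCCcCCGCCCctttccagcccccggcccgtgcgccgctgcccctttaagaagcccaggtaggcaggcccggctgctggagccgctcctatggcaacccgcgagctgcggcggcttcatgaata
ANO5: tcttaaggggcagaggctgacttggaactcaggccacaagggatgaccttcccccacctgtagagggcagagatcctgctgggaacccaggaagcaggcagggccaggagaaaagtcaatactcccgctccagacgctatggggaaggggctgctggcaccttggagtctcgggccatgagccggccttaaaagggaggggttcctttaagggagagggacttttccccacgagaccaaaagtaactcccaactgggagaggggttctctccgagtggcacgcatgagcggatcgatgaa

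The HCN3 window lies at chr1:155277213-155277512, plus strand, that of HCN2 at chr19:589631-589930, plus strand, that of HCN4 at chr15:73368909-73369208, minus strand and that of ANO5 at chr11:22192356-22192655, plus strand. GC boxes (those of HCN2 in part overlapping) numbered 4 in the HCN3 window, 7 in that of HCN2, 2 in that of HCN4 and 0 in that of ANO5. Of all 35116 RefSeq windows of this length, 45.0% hold at least 1. The share of G and C bases was 74.0% for HCN3, 84.7% for HCN2, 65.0% for HCN4 and 58.3% for ANO5, against a median of 58.7% over all windows. Other motifs were sought on both strands in these 4 windows, with 0 matches for each. They were the letters CCAAT, which 34.6% of all windows hold, the E-box CACGTG (7.26%), the sterol regulatory element TCACNCCAC (1.13%), the cAMP response element TGACGTCA (1.85%) and the TATA box TATAAA (11.5%). Having no match says only that these letters are not in these windows. Of the 25 genes, 22 had a window in the table.

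The labelled cell type was checked against marker genes. Of 12 markers of sympathetic neuroblasts 11 were measured, with gene means from 8.85 to 12.8 on the log2 scale, where the median of all probesets was 5.19. Means ran from 4.37 to 5.80 for 5 Schwann and glial markers from 4.18 to 5.10 for 3 endothelial markers and from 5.33 to 8.91 for 5 mesenchymal and fibroblast markers, and the 1 measured blood marker stood at 4.94. The mesenchymal list thus reached the lowest neuroblast marker, through TWIST1 at 8.91. HMGCS1, an early enzyme of cholesterol synthesis, was 3.17-fold higher with simvastatin than with DMSO (limma, adjusted p = 3.08e-06). With mevalonate added HMGCS1 was 2.08-fold lower than with simvastatin alone (limma, adjusted p = 1.31e-05). It was still 1.52-fold higher than with DMSO (adjusted p = 0.0129), so its return was partial. With simvastatin 4 of 5 measured mesenchymal markers fell, and their summed log2 values were 32.2 to 32.8, against 35.4 with DMSO on each array. With mevalonate added the sum was 34.5 to 34.7. Of the neuroblast markers 7 of 11 fell with simvastatin, with sums of 107.7 to 108.0 against 111.5 to 111.7 with DMSO. With mevalonate added the neuroblast sum was 110.6 to 111.1, below that of every DMSO array. Of all genes 7.38% fell with simvastatin against DMSO. The part of these shifts in the results on channel genes was not tested.

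Over all 25 genes, 3 (12%) changed with simvastatin against DMSO, all upward, where 13.4% of all 14884 genes changed, 5.98% upward and 7.38% downward. At an unadjusted p under 0.05 there were 5 of 25, where 25.6% of all genes passed it, and the groups did not overlap for 8, where 28.6% of all genes had this. With mevalonate against simvastatin alone 1 (4%) changed, downward, where 11.0% of all genes changed, 5.31% upward and 5.72% downward. Here 2 of 25 had an unadjusted p under 0.05 (23.8% of all genes) and 4 had groups apart (27.3% of all genes). Between simvastatin plus mevalonate and DMSO 0 of 25 changed (limma), where 0.0739% of all genes did, 0.0336% upward and 0.0403% downward. In that comparison 3 of 25 had an unadjusted p under 0.05 (11.0% of all genes) and 3 had groups apart (16.5% of all genes). In both cases the 3 were ANO5, ANO9 and ANO10, each higher than with DMSO. The median log2 change of the 25 genes was 0.04 with simvastatin against DMSO, beside 0.01 over all genes, and the median absolute change 0.11 beside 0.10. The upward share of 12% with simvastatin against DMSO rests on 3 genes and stood above the 5.98% of all genes, and the other shares given here were below those of all genes or within a few percentage points of them.

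**Figure D1:**
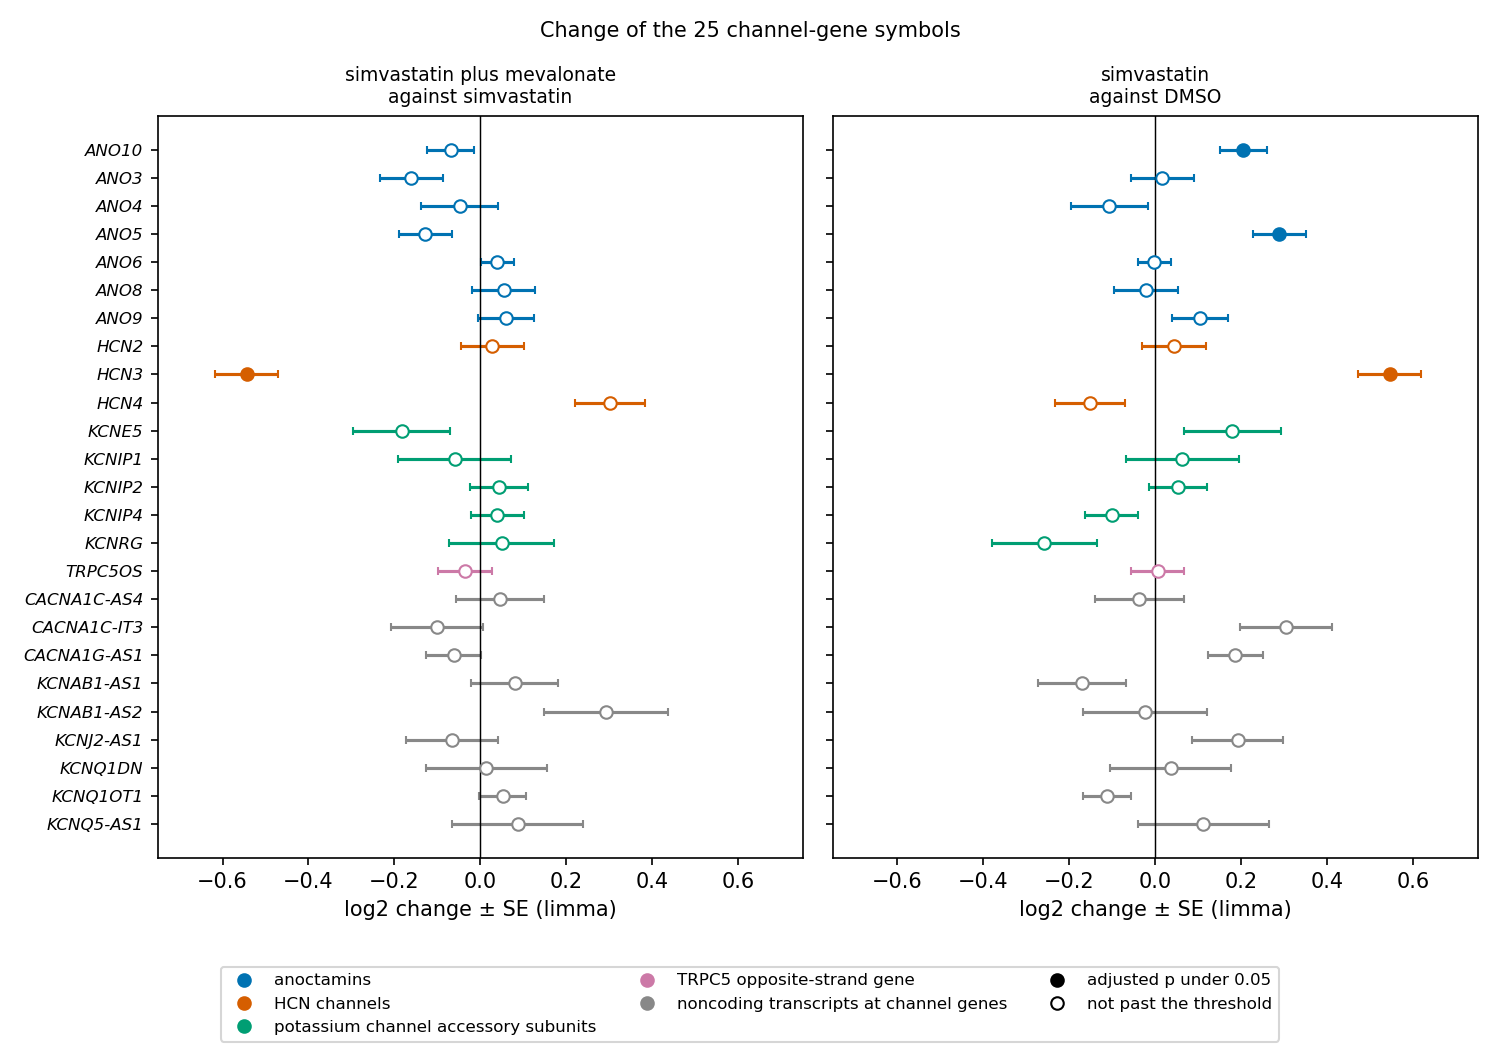
Log2 change ± SE (x axis, limma) of all 25 genes, for simvastatin plus mevalonate against simvastatin (left) and simvastatin against DMSO (right), grouped by role. Filled points have an adjusted p under 0.05: HCN3 in both panels (-0.54 and 0.55), and ANO5 (0.29) and ANO10 (0.21) on the right alone.

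HCN3 rose with simvastatin and fell when mevalonate was added to it. HCN3 is the family member with the weakest response to cyclic AMP. Its log2 values were 7.56, 7.45 and 7.50 on the simvastatin arrays, against 6.87, 6.96 and 7.04 on the DMSO arrays. All 3 simvastatin values lay above all 3 DMSO values. The means were 7.50 ± 0.06 with simvastatin and 6.95 ± 0.09 with DMSO (SD, n = 3 each), a log2 change of 0.55 ± 0.07 (SE) or 1.46-fold, with a 95% interval from 1.30 to 1.64 (limma across all genes, adjusted p = 0.00157). The RNA came from whole cultures, in which more cells making HCN3 and more HCN3 RNA per cell cannot be told apart.

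With mevalonate added, HCN3 stood at 7.02, 7.04 and 6.81, against 7.56, 7.45 and 7.50 with simvastatin alone. These groups did not overlap either, and every array with mevalonate was the lower. HCN3 fell by 0.54 on the log2 scale with mevalonate (SE 0.07, limma, adjusted p = 0.00201). Between simvastatin plus mevalonate (6.96 ± 0.12) and DMSO (6.95 ± 0.09), the log2 difference was 0.00 ± 0.07, with a 95% interval of the fold from 0.892 to 1.12 (adjusted p = 0.997). The 2 comparisons with simvastatin share its 3 arrays.

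**Figure D2:**
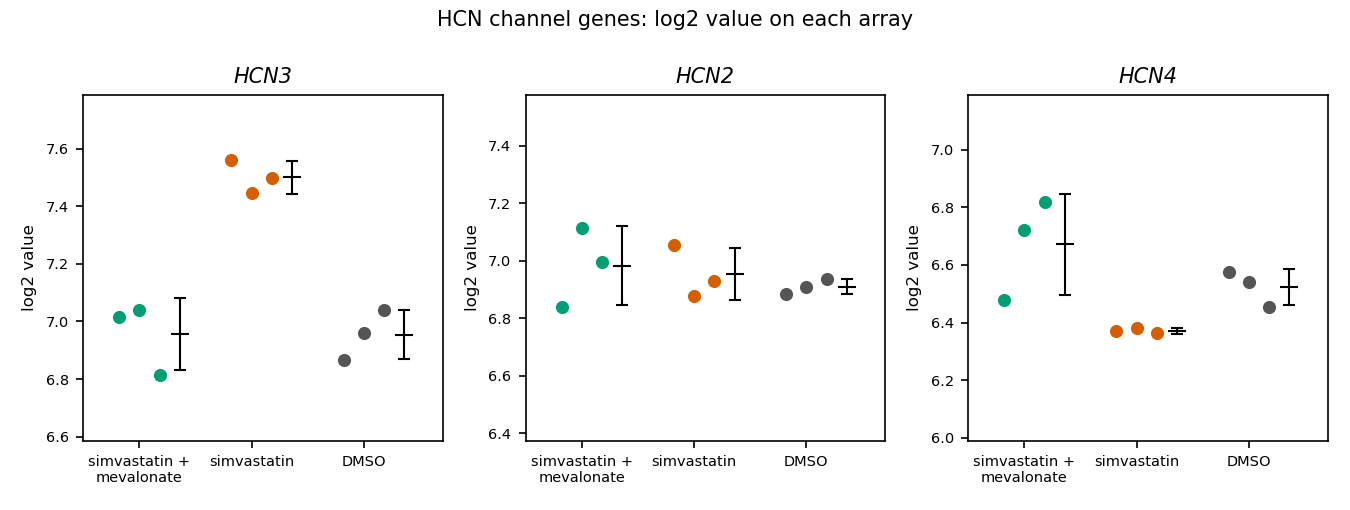
Log2 values of HCN3, HCN2 and HCN4 on each of the 9 arrays (y axis, each panel spanning 1.2 log2 units), by treatment group. Points are arrays, the bar beside each group is its mean with 1 SD. The 3 simvastatin arrays of HCN3 (7.45 to 7.56) sit above all others (6.81 to 7.04).

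HCN2, a cyclic AMP-sensitive channel of brain and heart, stood at 7.05, 6.88 and 6.93 with simvastatin, against 6.88, 6.91 and 6.94 with DMSO. These values overlap. Its log2 difference was 0.04 ± 0.07, with a 95% interval of the fold from 0.917 to 1.16 (adjusted p = 0.762), which lies below the lower bound for HCN3. With mevalonate added its values were 6.84, 7.11 and 6.996, which overlap both other groups.

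HCN4, the main HCN channel of the cardiac pacemaker, moved against HCN3 without passing the test. Its values were 6.48, 6.72 and 6.82 with simvastatin plus mevalonate, against 6.37, 6.38 and 6.36 with simvastatin alone. The groups did not overlap, and the log2 difference was 0.30 ± 0.08 (adjusted p = 0.0507). That difference passed the threshold without simvastatin plus mevalonate replicate 1 (adjusted p = 0.00588), with an intensity trend in the variance (0.0277) and among genes above the median of all probesets (0.0262). Against DMSO (6.57, 6.54 and 6.45) the simvastatin values were lower on every array, by 0.15 ± 0.08 on the log2 scale (adjusted p = 0.298).

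Whether the HCN genes changed unequally was measured within each array, where array-wide effects cancel. The difference HCN3 minus HCN2 was larger by 0.50 on the log2 scale with simvastatin than with DMSO, and HCN3 minus HCN4 by 0.70. With mevalonate added these differences dropped by 0.57 and 0.85 against simvastatin alone. For HCN4 minus HCN2 the shifts were -0.20 with simvastatin against DMSO and 0.27 with mevalonate against simvastatin alone. In all 6 comparisons the 3 arrays of one group lay on one side of the 3 of the other. The separation was thus not particular to the pairs with HCN3. These 6 are built from 3 genes and share the simvastatin arrays, so they are not separate observations. Among single genes 28.6% had groups apart with simvastatin against DMSO, and 27.3% with mevalonate against simvastatin alone. The share over other gene pairs was not counted. An exact two-sided permutation test gave p = 0.1 each, the smallest value that 3 against 3 arrays allow, and 0.1 after adjustment over the 6 comparisons made among HCN genes.

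Along the chromosome, the nearest named protein-coding genes in RefSeq were SCAMP3 and CLK2 before HCN3, and FDPS and RUSC1 after it. These neighbours were looked up after the values of HCN3 had been seen. FDPS makes farnesyl diphosphate from mevalonate-derived units and is an enzyme of the pathway that the drug blocks. Its log2 values were 7.44, 7.23 and 7.21 with simvastatin, against 6.77, 6.83 and 6.70 with DMSO. It rose by 0.53 ± 0.08 (limma, adjusted p = 0.0039) and fell by 0.36 with mevalonate against simvastatin alone (SE 0.08, adjusted p = 0.0274). CLK2, a kinase of splicing factors, had a log2 difference of -0.04 ± 0.06 with simvastatin against DMSO (adjusted p = 0.714), RUSC1 one of 0.11 ± 0.07 (0.345) and SCAMP3, a membrane trafficking protein, one of 0.20 ± 0.06 (0.0538), and none of these passed. FDPS alone among these neighbours passed the test with simvastatin against DMSO, where 13.4% of all genes did. So few neighbours say little about the stretch as a whole. CLK2, adjoining HCN3 on one side, did not pass the test. The value of CLK2 was exactly the same, 7.59, on every DMSO array, every array with mevalonate and simvastatin replicate 1. RUSC1 also had a repeated value, 6.51, found in each group. Such repeats limit what these arrays can show of changes in CLK2 and RUSC1. The gene PKLR, which overlaps the end of HCN3 in RefSeq and lies between HCN3 and FDPS, was not analysed here, and which part of HCN3 the probes read was not examined.

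**Figure D3:**
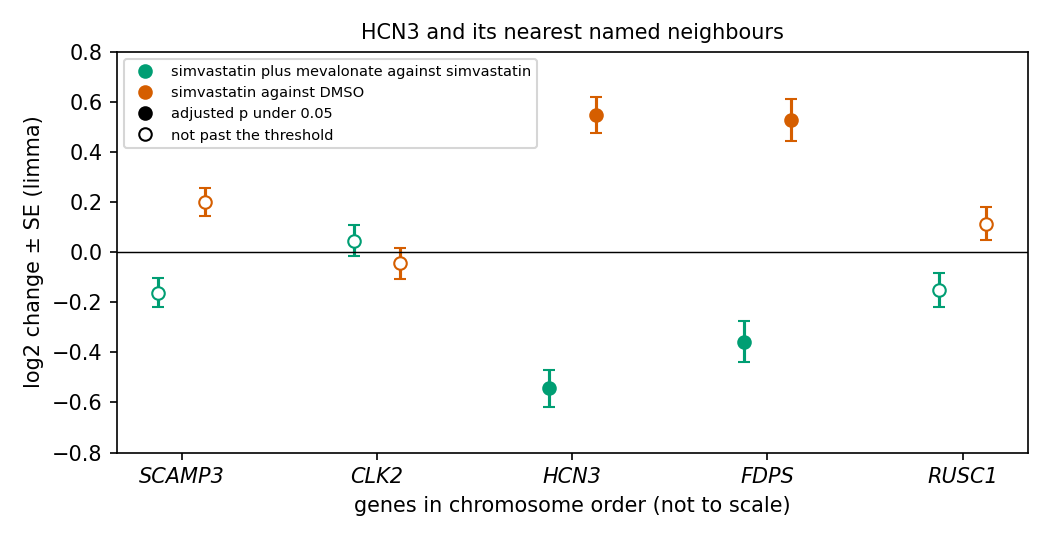
Log2 change ± SE (y axis, limma) of HCN3 and its 4 nearest named neighbours in chromosome order (x axis, not to scale), for simvastatin plus mevalonate against simvastatin and for simvastatin against DMSO. Filled points have an adjusted p under 0.05: HCN3 (-0.54 and 0.55) and FDPS (-0.36 and 0.53) are filled in both comparisons.

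Among the anoctamins, ANO5 and ANO10 were higher with simvastatin than with DMSO, and 5 of the 7 did not pass the test. ANO5, whose loss causes a muscular dystrophy, had log2 values of 7.93, 7.95 and 7.74 with simvastatin, against 7.62, 7.51 and 7.61 with DMSO. The groups did not overlap, with simvastatin replicate 3 closest to the DMSO arrays. ANO5 rose by 0.29 ± 0.06 or 1.22-fold, with a 95% interval from 1.11 to 1.35 (limma, adjusted p = 0.0165). Leaving out DMSO replicate 2 (adjusted p = 0.0604), simvastatin replicate 1 (0.0530) or simvastatin replicate 2 (0.0547) ended the call, as did a fit on these 6 arrays alone (0.0593) and adjustment over all probesets (0.0546).

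With mevalonate added ANO5 stood at 7.74, 7.74 and 7.76, between the other groups. Its log2 difference was -0.13 ± 0.06 from simvastatin alone (adjusted p = 0.256) and 0.16 ± 0.06 from DMSO (adjusted p = 0.405). Neither passed the test, so these arrays do not place it with one group or the other. Without simvastatin replicate 3, the difference from simvastatin alone was -0.19 and passed (adjusted p = 0.0498).

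ANO10, a scramblase of the endoplasmic reticulum whose loss causes an ataxia, had values of 6.12, 6.22 and 6.04 with simvastatin, against 5.92, 5.97 and 5.87 with DMSO. The groups did not overlap, and the rise was 0.21 ± 0.05 or 1.15-fold, with a 95% interval from 1.06 to 1.26 (limma, adjusted p = 0.0402). Of 9 fits that each left out 1 array, only the one without simvastatin replicate 3 kept this call, and the adjusted p reached 0.126 without DMSO replicate 3. With DMSO replicate 1 left out it was 0.0998, with DMSO replicate 2 0.0634, with simvastatin replicate 1 0.0838 and with simvastatin replicate 2 0.103. Without simvastatin plus mevalonate replicates 1, 2 or 3, which bear only on the estimate of the spread, it was 0.0655, 0.0587 and 0.0628. The call also ended with an intensity trend in the variance (adjusted p = 0.0527), with a fit on these 6 arrays alone (0.0964) and with adjustment over all probesets (0.120). With mevalonate added the values were 6.04, 6.09 and 6.04, a log2 difference of -0.07 ± 0.05 from simvastatin alone (adjusted p = 0.498). From DMSO the difference was 0.14 ± 0.05 (adjusted p = 0.411), with groups that did not overlap. In RefSeq ANO10 overlaps ABHD5, an activator of triglyceride lipase, which did not pass the test with simvastatin against DMSO (0.24 ± 0.08, adjusted p = 0.108).

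ANO6, the scramblase that exposes phosphatidylserine on platelets, stood at 11.66, 11.64 and 11.65 with simvastatin, against 11.63, 11.66 and 11.66 with DMSO. Its log2 difference was -0.00 ± 0.04, with a 95% interval of the fold from 0.940 to 1.06 (adjusted p = 0.988), the narrowest interval among the 25 genes. The log2 difference was -0.02 ± 0.07 for ANO8, which tethers the endoplasmic reticulum to the plasma membrane (limma, adjusted p = 0.892), 0.02 ± 0.07 for ANO3, a gene of hereditary dystonia (0.919), and -0.11 ± 0.09 for ANO4 (0.522). That of ANO9 was 0.10 ± 0.07 (adjusted p = 0.371), and its value was the same, 5.07, on all 3 simvastatin arrays. With DMSO ANO9 stood at 5.06, 5.01 and 4.83, so its groups did not overlap either. ANO4 stood at 5.72 on DMSO replicate 3 and at 5.30 to 5.40 on the other 8 arrays.

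**Figure D4:**
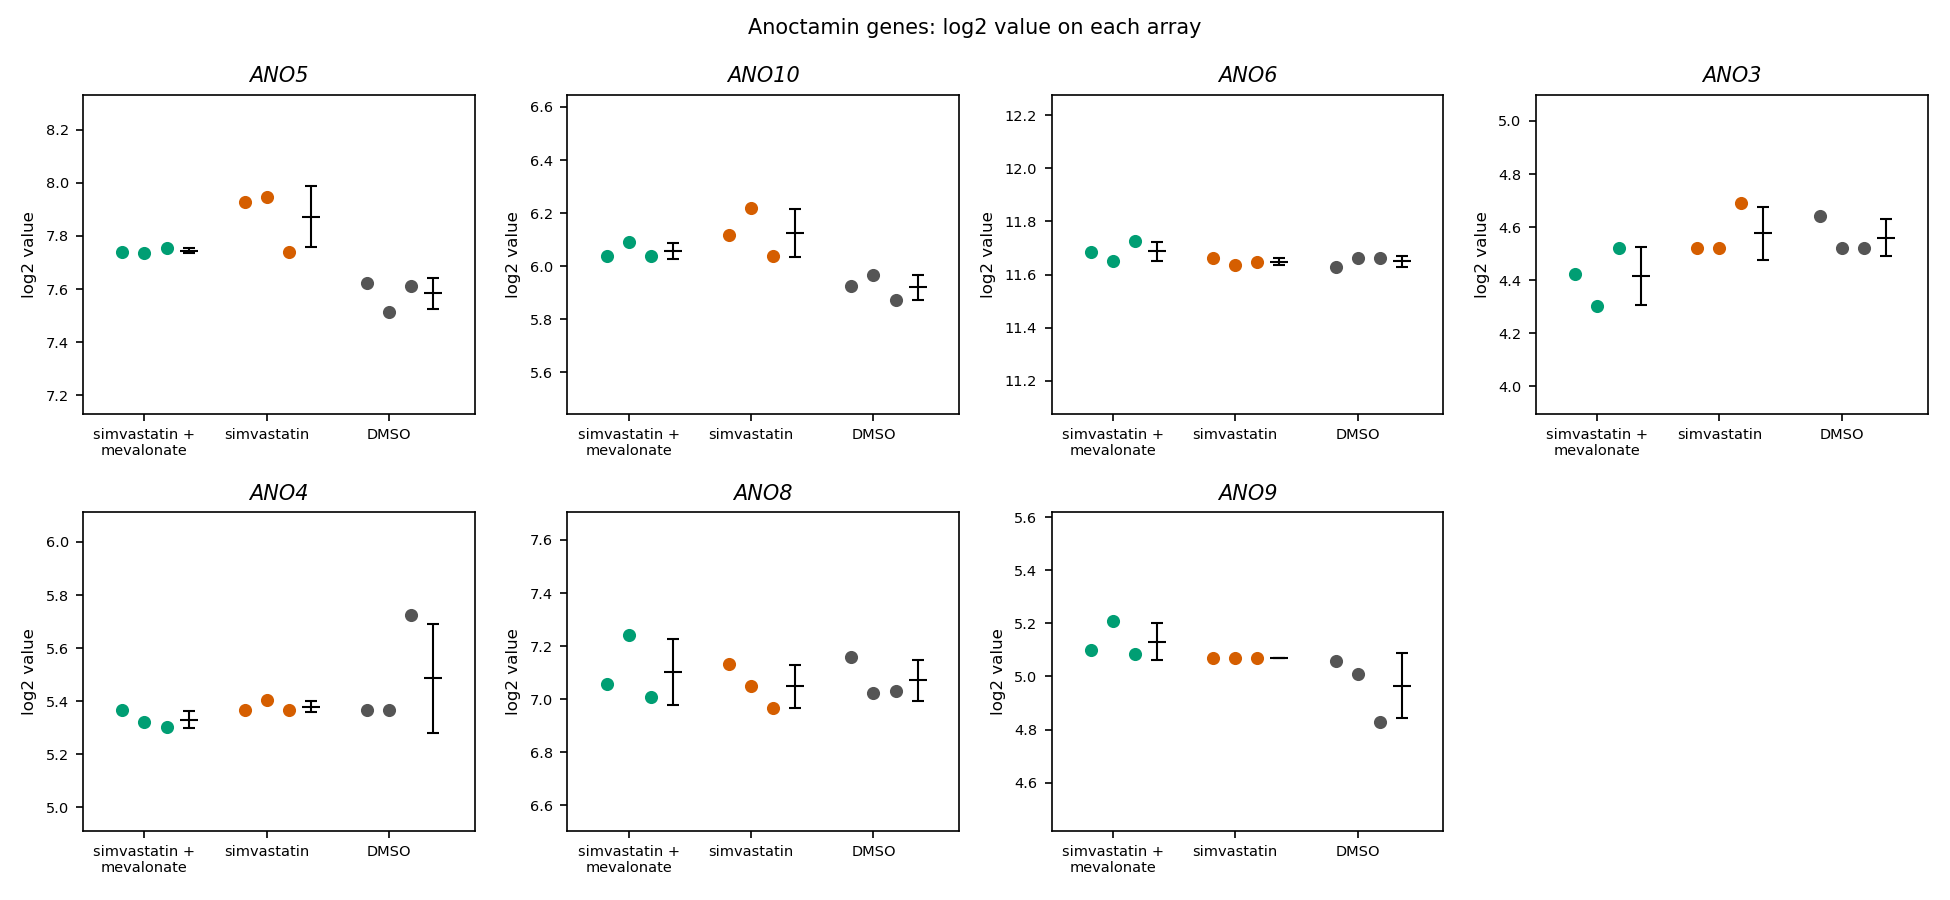
Log2 values of the 7 anoctamin genes on each of the 9 arrays (y axis, each panel spanning 1.2 log2 units), by treatment group. Points are arrays, the bar beside each group is its mean with 1 SD. ANO5, ANO10 and ANO9 are higher on all 3 simvastatin arrays than on all 3 DMSO arrays, ANO9 without passing the test. ANO6 stays within 11.63 to 11.73.

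None of the 5 potassium channel accessory genes passed the test in the 3 comparisons (limma; 0 of 5 also at an unadjusted p under 0.05 in each). KCNRG, which holds potassium channel subunits back in the endoplasmic reticulum, had log2 values of 5.88, 6.31 and 5.93 with simvastatin, against 6.17, 6.36 and 6.36 with DMSO. The groups overlap through simvastatin replicate 2. Its log2 difference was -0.26 ± 0.12 (adjusted p = 0.235), and -0.39 without that replicate, which passed the threshold (adjusted p = 0.0389). The calcium sensor genes had log2 differences of 0.06 ± 0.13 (KCNIP1), 0.05 ± 0.07 (KCNIP2) and -0.10 ± 0.06 (KCNIP4). KCNE5, a modulator of KCNQ1, stood at 4.79 to 4.82 on 8 arrays and at 5.29 on simvastatin replicate 3, and its log2 difference was 0.18 ± 0.11 (adjusted p = 0.372). The second probeset of KCNIP2, the only member with more than 1, was dimmer and was not used.

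Of the 9 long non-coding RNA genes 0 passed the test in each comparison (limma; 2 at an unadjusted p under 0.05 for simvastatin against DMSO and 0 in the other comparisons). KCNQ1OT1, the imprinted antisense transcript of the KCNQ1 domain, which silences neighbouring genes on the paternal chromosome, had log2 values of 7.13, 7.005 and 7.05 with simvastatin, against 7.14, 7.16 and 7.21 with DMSO. All simvastatin values were lower, by 0.11 ± 0.06 (SE) on average (adjusted p = 0.252). CACNA1C-IT3, within the gene of an L-type calcium channel, stood at 4.43, 4.68 and 4.53 with simvastatin, against 4.04, 4.48 and 4.22 with DMSO (0.30 ± 0.11, adjusted p = 0.111). CACNA1G-AS1, antisense to the gene of a T-type calcium channel, stood at 5.92, 5.77 and 5.87 with simvastatin, against 5.66, 5.78 and 5.56 with DMSO (0.19 ± 0.06, adjusted p = 0.0991). In both genes 1 array kept the groups from separating, and both passed without DMSO replicate 2 (adjusted p = 0.0221 and 0.0454). The other 6 had log2 differences between -0.17 (KCNAB1-AS1, adjusted p = 0.357) and 0.19 (KCNJ2-AS1, adjusted p = 0.310) with simvastatin against DMSO in limma's fit, and 5 of them lay below 5.19, the median of all probesets. TRPC5OS was among the dimmest, at 2.84 to 3.03 on the 9 arrays, with a log2 difference of 0.01 ± 0.06 (adjusted p = 0.968).

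Low signal limits what these arrays can show for many of the 25. Their mean lay above the median of all probesets for 14, among them 11 of the 16 protein-coding genes but 3 of the 9 non-coding ones, where 68.3% of all named genes lay above it. Exactly the same value, to the 6 decimals of the file, recurred on at least 2 arrays for 18 of the 25 genes and on at least 3 arrays for 11, where 57.4% and 33.8% of all genes had such repeats. These repeats were not confined to dim genes, since ANO6 had 11.66 on 3 arrays. ANO5 (7.74) and ANO10 (6.04) each had the same value on simvastatin replicate 3 and on simvastatin plus mevalonate replicate 1. HCN3 also had a repeated value, 7.04, on simvastatin plus mevalonate replicate 2 and on DMSO replicate 3. This limits what can be read from its difference between those groups. In RefSeq 15 of the 25 overlap a protein-coding gene, and probes that such a gene shares were not examined.

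The measured channel partners and other channel genes outside the rule gave a similar picture of a few changed genes among many. From 8 lists of channel partners and other transport genes, 77 of 207 entries were measured, all of them in 4 lists. The other 4 lists held no measured gene. They were calcium pumps and exchangers, the sodium-potassium pump and cation-chloride cotransporters, glutamate receptor channels, and acetylcholine, GABA, glycine and purine receptor channels. Nothing is shown here of those groups. With simvastatin against DMSO 8 of 77 rose and 3 fell (14.3%, beside 13.4% of all genes), with a median log2 change of 0.04. With mevalonate added, 2 rose and 6 fell against simvastatin alone (10.4%, beside 11.0% of all genes, 5.31% upward and 5.72% downward). Between simvastatin plus mevalonate and DMSO 0 of 77 changed (limma), beside 0.0739% of all genes. The single lists are small, and their counts stand beside 5.98% of all genes upward and 7.38% downward with simvastatin against DMSO. Among 28 partners and regulators 1 rose and 2 fell. FGF14, which binds sodium channels near the axon's start, fell by 0.68 (SE 0.06, adjusted p = 0.000133), UNC79, a partner of the sodium leak channel, fell by 0.37 (SE 0.06), and GEM, a GTPase that restrains calcium channels, rose by 0.36 ± 0.08.

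Among 19 other sodium and cation channel genes 3 rose, where 5.98% of all genes did: PIEZO1 (0.59 ± 0.10), which opens on membrane stretch, PKD1 (0.50 ± 0.05), polycystin 1, and TMEM63B (0.29 ± 0.07), another stretch-sensitive channel. Among 19 other chloride channel genes 3 rose against the same 5.98%: BEST1 (0.86 ± 0.10), a calcium-activated chloride channel, and CLIC1 (0.56 ± 0.05) and CLIC4 (0.21 ± 0.04) of the intracellular channel family. Of 11 genes of calcium release and store-operated entry SARAF, which limits store-operated entry, rose by 0.26 ± 0.04 and TMCO1, a calcium leak channel of the endoplasmic reticulum, fell by 0.15 (SE 0.04). With mevalonate added BEST1 (-0.84 ± 0.10), PKD1 (-0.64 ± 0.05), CLIC1 (-0.61 ± 0.05), GEM (-0.55 ± 0.08), SARAF (-0.32 ± 0.04) and TMEM63B (-0.31 ± 0.07) fell against simvastatin alone. FGF14 (0.58 ± 0.06) and UNC79 (0.32 ± 0.06) rose. PIEZO1 (-0.37 ± 0.10, limma, adjusted p = 0.0559), CLIC4 (-0.12 ± 0.04, 0.122) and TMCO1 (0.13 ± 0.04, 0.0848) did not pass the test in that comparison.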

How the data were processed

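The deposited table holds log2 values, 1 per probeset and array, made by the authors. The scale was inferred, since the values span about 1 to 14 with array medians from 5.17 to 5.21. Per the submitters' processing notes GCRMA and HOMER were used, with no version or role given. For the probes' genome build the labels give no entry. Of 53617 probesets, 16098 carried 1 symbol, which gave 14884 genes.

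All 9 arrays entered 1 model in limma 3.58.1 (R 4.3.3; lmFit, then eBayes with neither trend nor robust option) with 3 group means (6 residual and 2.39 prior degrees of freedom), and p-values were adjusted across the 14884 genes after Benjamini and Hochberg. Genes under 0.05 are those said to have risen, fallen or changed. The code of the fit was tried on simulated data with independent normal noise and none of the repeated values. That trial was not used to judge how well changes of the size seen here are found. The genes, lists and naming rule were chosen with earlier results of these data known. Full values were given for called genes, the brightest gene of each role and the largest change of each ion group. Values of HCN2, HCN4, the other anoctamins, KCNE5 and both CACNA1 transcripts were added after they were seen. Same-numbered arrays did not deviate together, with correlations from -0.08 to 0.05. Alternatives were the probeset summary, 2 normalizations, a filter on dim genes, 2 variance models, the groups and features in the fit, a replicate block and leaving out each array. The number of arrays limits the precision.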

Additional observations from a re-analysis of the deposited data

How the results depend on the processing

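HCN3 kept its direction and call in all 18 alternatives of each comparison, with log2 changes from 0.50 to 0.59 for simvastatin against DMSO and from -0.59 to -0.47 for simvastatin plus mevalonate against simvastatin. The count of channel genes changed with simvastatin against DMSO, 3 of 25, was 1 with only the groups compared and with adjustment over all probesets, and 1 to 3 without single arrays. With mevalonate against simvastatin the count of 1 was 2 with the filter on dim genes and with an intensity trend, and 1 to 2 without single arrays. Against DMSO it was 0 in every alternative run. Of the measured partner and channel genes outside the rule, 11 changed with simvastatin against DMSO, 7 with adjustment over all probesets and 7 to 10 without single arrays. With mevalonate against simvastatin 8 changed, 13 with the filter, 14 with the trend and 7 to 9 without single arrays. With the replicate number as a replicate block, the log2 change of HCN3 with simvastatin against DMSO was 0.55 (adjusted p = 0.00964), the counts of channel genes were 3, 1 and 0, and no call among the 25 genes was lost. Over all 14884 genes, the count of 11 that changed between simvastatin plus mevalonate and DMSO was 225 with the trend, 105 with the filter, 0 with only the groups compared, 0 with the block and 0 to 12 without single arrays (limma). The correlations show no pairing by number. The cause of the other differences was not tested. Dim probesets, 11 of the 25, limit what can be seen of their changes.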

Other observations

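Genes beside the anoctamins that changed were also read, 2 named protein-coding genes on each side in RefSeq, chosen after the anoctamin values had been seen. Of these 8 genes 1 rose and 1 fell with simvastatin against DMSO, where 13.4% of all genes changed. Next to ANO10, POMGNT2, which builds the sugar chain of dystroglycan, rose by 0.53 ± 0.10 with simvastatin against DMSO (limma, adjusted p = 0.00987) and fell by 0.46 with mevalonate against simvastatin alone (SE 0.10, adjusted p = 0.0217). SNRK, a kinase, lies between them and did not pass the test with simvastatin against DMSO (0.05 ± 0.05, adjusted p = 0.578). Next to ANO5, NELL1, a secreted glycoprotein, moved the other way, with log2 values of 5.35, 5.36 and 5.30 with simvastatin, against 6.01, 5.70 and 6.03 with DMSO. NELL1 fell by 0.58 (SE 0.09, adjusted p = 0.00455) and rose by 0.37 ± 0.09 with mevalonate against simvastatin alone (adjusted p = 0.0399). The others did not pass with simvastatin against DMSO in limma's fit, ABHD5 at 0.24 ± 0.08 (adjusted p = 0.108), TOPAZ1 at 0.00 ± 0.05 (0.966), PRMT3 at -0.01 ± 0.07 (0.939), GAS2 at 0.23 ± 0.16 (0.422) and SVIP at -0.06 ± 0.07 (0.668).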
